A study of Triticum aestivum with 2 samples.

Results

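The endodermis marker genes are the 6 wheat genes that the study's table of spatial markers gives for the endodermis, out of 100979 gene IDs counted on the chips. The study took top genes of the endodermis cluster in its single-cell data and looked for their pattern in root sections, and 5 of the 6 are listed as showing it (TraesCS3D03G0402600, TraesCS3D03G0720200, TraesCS5D03G0492700, TraesCS2D03G0321300 and TraesCS5B03G0538700). It added TraesCS5A03G0526900 as a gene for plotting. They were matched here by gene ID, and all 6 were found on both chips. Their radial pattern thus entered their choice, after the single-cell cluster, and it is described here without a test.

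The series holds 2 Stereo-seq libraries of roots of bread wheat (Triticum aestivum, Chinese Spring), one from the distal root region and one from the root cap region. Both came from seedlings germinated on a plate and then moved to soil, with no treatment compared, and both chips carry cross-sections of 10 μm. Stereo-seq captures polyadenylated RNA on a dense grid of barcoded spots, and each captured molecule is counted by its molecular identifier (MID). The distal chip had 4 outlined sections with 1383325 to 2239126 nuclear MIDs each, and the root cap chip had 10 with 91637 to 636364. With 1 library per region and sections that share a chip, no p-value is given, and all limits are exact 95% intervals that cover counting error only. Distal section 4 stood apart from the other distal sections in these genes and in markers of several cell types, and values without it are given where they matter. Of all nuclear MIDs, 9.41% lay within the outlines of the distal chip and 10.6% within those of the root cap chip.

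The endodermis is the innermost layer of the root cortex and encloses the pericycle and the vascular tissue. Its cells build the Casparian strip, a band of lignin in the wall between neighbours that blocks the path of water and ions through the walls, and later a coat of suberin. In Arabidopsis, the transcription factor MYB36 switches on the genes for the strip, CIF peptides made in the stele report its integrity to the endodermis, and class III peroxidases and uclacyanins take part in its lignification. Of the members, TraesCS3D03G0402600 lies in the orthologous group that the study names PER9, after an Arabidopsis class III peroxidase, and TraesCS2D03G0321300 is named peroxidase 2-like. TraesCS5B03G0538700 and TraesCS5D03G0492700 share an orthologous group without a name. TraesCS5A03G0526900 was plotted with them, and these are called the group 5 genes here, after their chromosomes 5A, 5B and 5D. TraesCS3D03G0720200 has no name in the study's tables, which pair it with TraesCS3A03G0779600 and TraesCS3B03G0898100.

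The 6 genes formed a ring in the distal root region. They had 345 MIDs within the 4 sections (limits 310 to 383), and 213 of these lay between relative radius 0.40 and 0.60, where 72.4 were expected from the position of all nuclear MIDs. Relative radius is 0 at the centre of a section and 1 at its outline. The interval from 0.40 to 0.60 was set after the profiles were seen. A narrower zone, from 0.37 to 0.50, was set by eye from root anatomy for endodermis and pericycle. This zone is not specific to them, since the xylem and phloem lists were also enriched there (log2 1.75 and 2.04). In it the members had 116 MIDs against 39.97 expected (log2 1.54, limits 1.26 to 1.80). The median log2 enrichment over the 6 genes was 1.44, and without section 4 the pooled value was 1.31 (limits 0.89 to 1.70). The mean relative radius of the members was 0.552, a shift of -0.114 against all nuclear MIDs of the same sections, which is towards the centre.

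**Figure D1:**
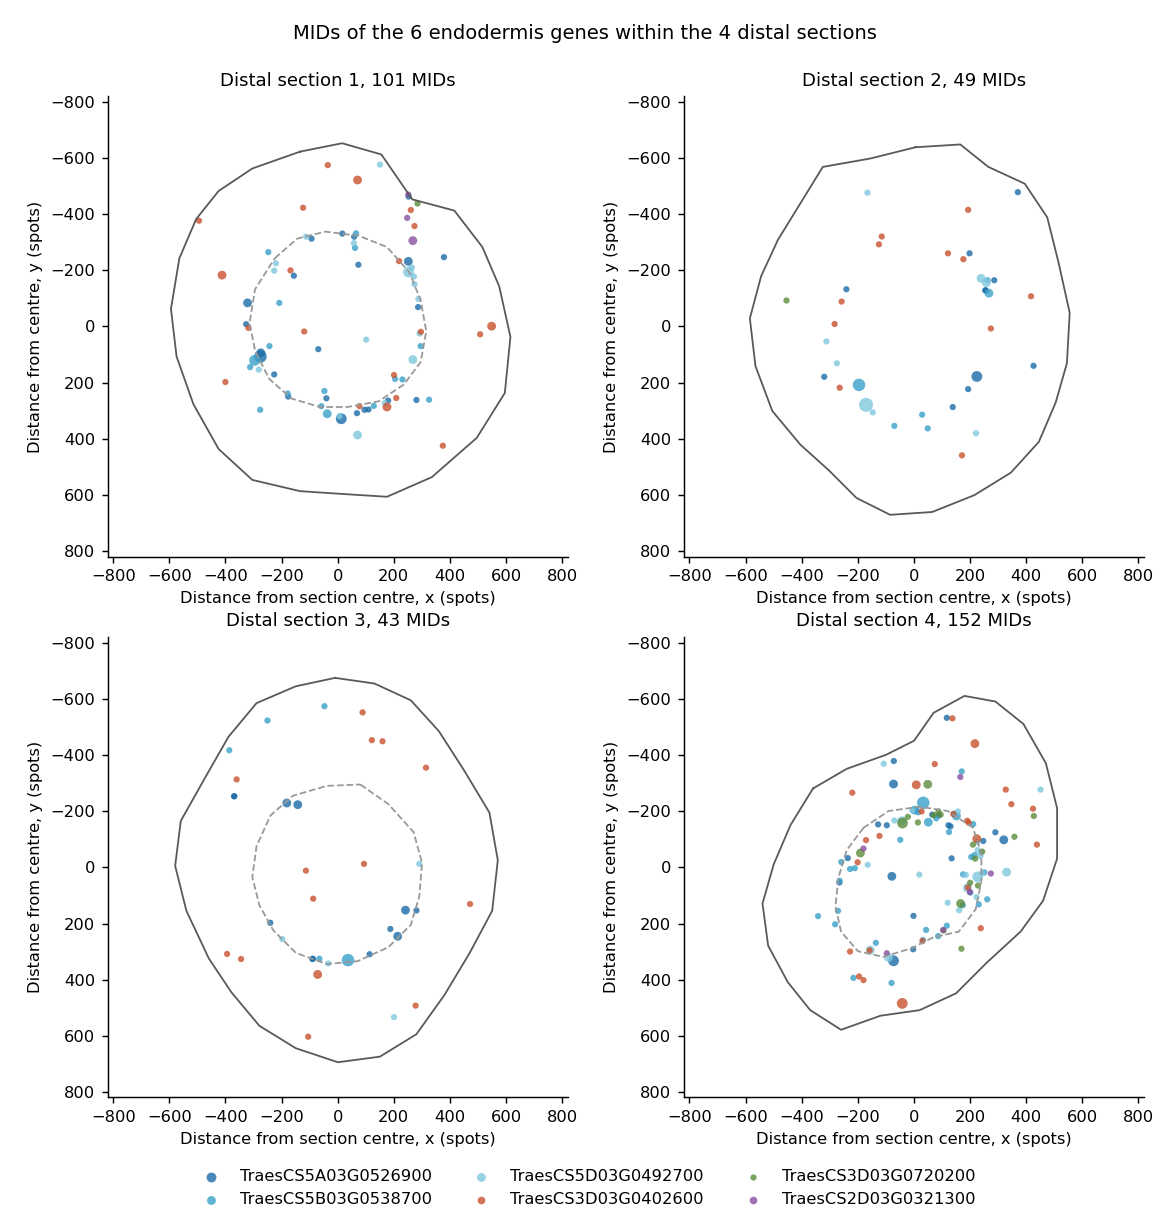
Position of each MID of the 6 genes in the 4 distal sections, in spots from the section's centre along x and y. Point area grows with the MIDs at a spot, solid lines are section outlines, and dashed lines are the ring of high MID density drawn on the map of all MIDs in sections 1, 3 and 4. The group 5 genes (blues) follow the dashed ring, while TraesCS3D03G0402600 (red) is also scattered outside it.

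The ring stood in each distal section. Section 1 had 67 of its 101 member MIDs between 0.40 and 0.60, with 20.4 expected. In section 2, 40 of 49 lay there, with 9.84 expected, and no member MID was closer to the centre than 0.40. Section 3 had 24 of 43, with 8.93 expected, and section 4 had 82 of 152, with 33.2 expected. In the narrower zone the log2 enrichment was 1.23, 1.62, 1.07 and 1.76 in sections 1 to 4, and its lower limit was closest to 0 in section 3 (limits 0.01 to 1.94). The bin with the most MIDs for its depth was that from 0.50 to 0.60 in sections 1 to 3 and that from 0.40 to 0.50 in section 4. With each circle cut into 4 equal sectors, the interval from 0.40 to 0.60 held member MIDs in all sectors of all 4 sections, between 1 MID in a sector of section 3 and 27 in each of 2 sectors of section 4.

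**Figure D2:**
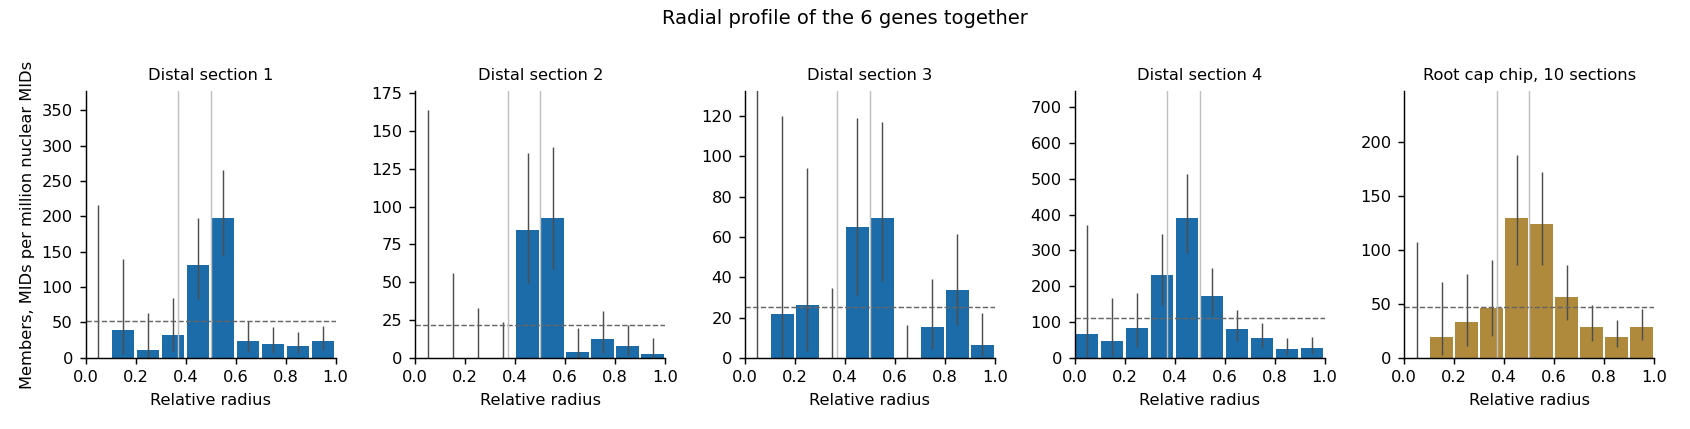
MIDs of the 6 genes per 1000000 nuclear MIDs in 10 bins of relative radius, for each distal section and for the 10 root cap sections together. Bars are values, vertical lines exact 95% Poisson limits (cut at the top of the axis where higher), dashed lines the mean of each panel, and grey lines the radii 0.37 and 0.50. The bins from 0.40 to 0.60 are the highest in distal sections 1 to 3 and on the root cap chip, and the bin from 0.40 to 0.50 in distal section 4, where the next highest is that from 0.30 to 0.40.

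A landmark whose position does not depend on the outlines was also used, though only MIDs within the outlines were counted. The distance from it was added after the data were seen. The map of all MIDs shows a bright ring in sections 1, 3 and 4, and it was drawn by hand with no gene mapped. Its median relative radius was 0.517, 0.518 and 0.525. Between the 5% and 95% quantiles this radius ran from 0.476 to 0.573 in section 1 and from 0.442 to 0.564 in section 3. In section 4 it ran from 0.368 to 0.623, so a fixed radius followed the drawn line less closely there. Within 40 spots of this line lay 159 of the 296 member MIDs of these sections, where 48.4 were expected (log2 enrichment 1.71, limits 1.48 to 1.94). By section the log2 enrichment was 2.04, 1.73 and 1.51 in sections 1, 3 and 4, with limits that overlap. Section 4 was thus the lowest near the line, though it was the highest in the narrower zone. Of the group 5 MIDs, 128 of 193 lay near the line, with 31.3 expected (2.03, limits 1.77 to 2.28). Their median distance from the line was 5 spots towards the centre. The cortex list had its median 102 spots outside the line, and the xylem list 51.3 spots inside it. The members as a sum, most of which is the group 5 genes, lay between the cortex and xylem lists. TraesCS3D03G0402600 did not, with its median 123 spots outside the line.

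**Figure D3:**
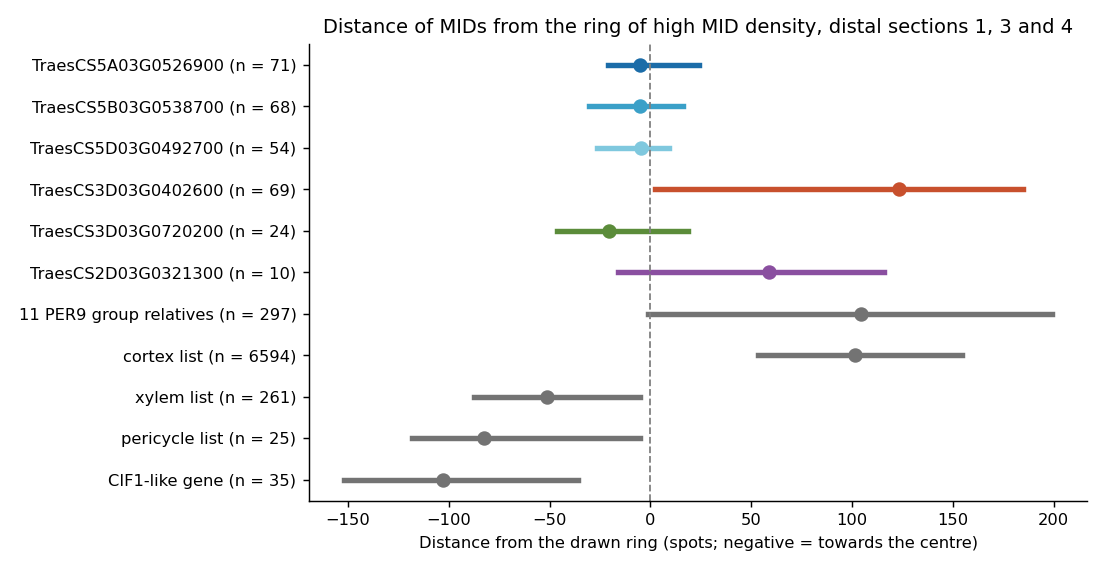
Distance of MIDs from the drawn ring in distal sections 1, 3 and 4, in spots, with negative values towards the centre. Points are medians, bars run from the lower to the upper quartile, and n is the number of MIDs. The group 5 genes and TraesCS3D03G0720200 straddle the ring, whereas TraesCS3D03G0402600 and the cortex list have their medians 123 and 102 spots outside it.

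The group 5 genes carried most of the ring, with 166 of the 213 member MIDs between 0.40 and 0.60. TraesCS5A03G0526900 had 31, 13, 16 and 24 MIDs in distal sections 1 to 4. Section 1 had the most MIDs, but for their depth section 4 was slightly above it, at 17.3 against 15.8 MIDs per 1000000 nuclear MIDs. TraesCS5B03G0538700 had 20, 10, 8 and 40 MIDs, and was highest in section 4. TraesCS5D03G0492700 had 21, 14, 4 and 29 MIDs, and was also highest in section 4. From 66.7% to 77.9% of the MIDs of each lay between radius 0.40 and 0.60, and their mean radii were 0.529, 0.5004 and 0.530. In the narrower zone the log2 enrichment was 2.06 for TraesCS5B03G0538700 (limits 1.56 to 2.52), 1.61 for TraesCS5D03G0492700 (limits 0.97 to 2.18) and 1.26 for TraesCS5A03G0526900 (limits 0.61 to 1.85). The limits overlap. The study's tables name no function for these genes.

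Of the 3 group 5 genes, the 5A gene had the most MIDs on both chips, without correction for gene length. Within the distal outlines, the 5A gene gave 36.5% of their 230 MIDs (limits 30.3% to 43.1%). The 5B gene gave 33.9% (27.8% to 40.4%) and the 5D gene 29.6% (23.7% to 35.9%), so the limits overlap there. Over all spots of the distal chip the shares of the 5A, 5B and 5D genes were 41.5% (limits 39.1% to 44.0%), 30.4% (28.1% to 32.7%) and 28.1% (25.9% to 30.4%) of 1593 MIDs. Here the limits of the 5A gene did not overlap the others, but 1363 of the 1593 MIDs lay outside the outlines. Over all spots of the root cap chip the 5B gene was the lowest of the 3, with 24.7% of 724 MIDs (limits 21.6% to 28.0%). The 5A gene had 39.1% (35.5% to 42.8%) and the 5D gene 36.2% (32.7% to 39.8%), with limits that overlap. The 5A share ranged by distal section between 57.1% of 28 MIDs in section 3 and 25.8% of 93 in section 4. The study's tables do not say whether the 5A gene is the third copy of the pair on 5B and 5D. Reads that fit near-identical copies could have been split among them in the counting, so the shares are uncertain to that extent.

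TraesCS3D03G0402600 of the PER9 group was spread more widely. It had 24, 11, 15 and 30 MIDs in sections 1 to 4. Of these 80, 28 lay between radius 0.40 and 0.60, where 16.7 were expected, and its mean radius was 0.647. In section 3, 0 of its 15 MIDs lay in the narrower zone and 0 within 40 spots of the drawn ring, against 21 of 28 group 5 MIDs near the ring in the same section. Over the 3 sections with a ring its median distance was 123 spots outside. Its enrichment between 0.40 and 0.60, relative to that of the other 5 members, was 0.504 (exact conditional limits 0.326 to 0.752). On the root cap chip the same ratio was 1.53 (limits 0.835 to 2.70), and there 9 of its 29 MIDs lay in the narrower zone.

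Of its orthologous group, the genes with the most MIDs also reached the outer root. Of the 11 other wheat genes of the PER9 group, 7 had a MID within the distal outlines and 3 had at least 20. TraesCS3B03G0508400 had 165 MIDs (37, 17, 21 and 90 by section) and TraesCS3A03G0429700 had 132 (31, 26, 10 and 65). Both were thus captured more often than the member itself. Taken with TraesCS3D03G0402600, these genes of 3A, 3B and 3D had 124 of 377 MIDs between 0.40 and 0.60, with 79.4 expected. They had a further 89 between 0.80 and 0.90, with 63.0 expected (log2 0.50, limits 0.18 to 0.80), and 91 in the stretch between, with 106 expected. Alone, TraesCS3A03G0429700 had 38 MIDs in the outer interval (0.78, limits 0.28 to 1.24), of which single spots gave 8, 5 and 4. The member TraesCS3D03G0402600 had 16 with 13.6 expected (0.24, limits -0.57 to 0.94), and TraesCS3B03G0508400 had 35 with 27.4 expected (0.35, limits -0.17 to 0.83), so that neither of these was set apart from expectation there. The group 5 genes had 5 of 230 MIDs between 0.80 and 0.90, with 38.9 expected. The outer interval was chosen after the profiles were seen, and the group 5 genes were chosen for a ring, so these values are a description. By section, the 3 PER9 group genes had the outer excess in section 1, with 32 MIDs where 16.6 were expected, and in section 3, with 16 where 8.04 were expected. Section 2 had 12 with 9.62 expected, and section 4 had 29 with 28.8 expected.

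**Figure D4:**
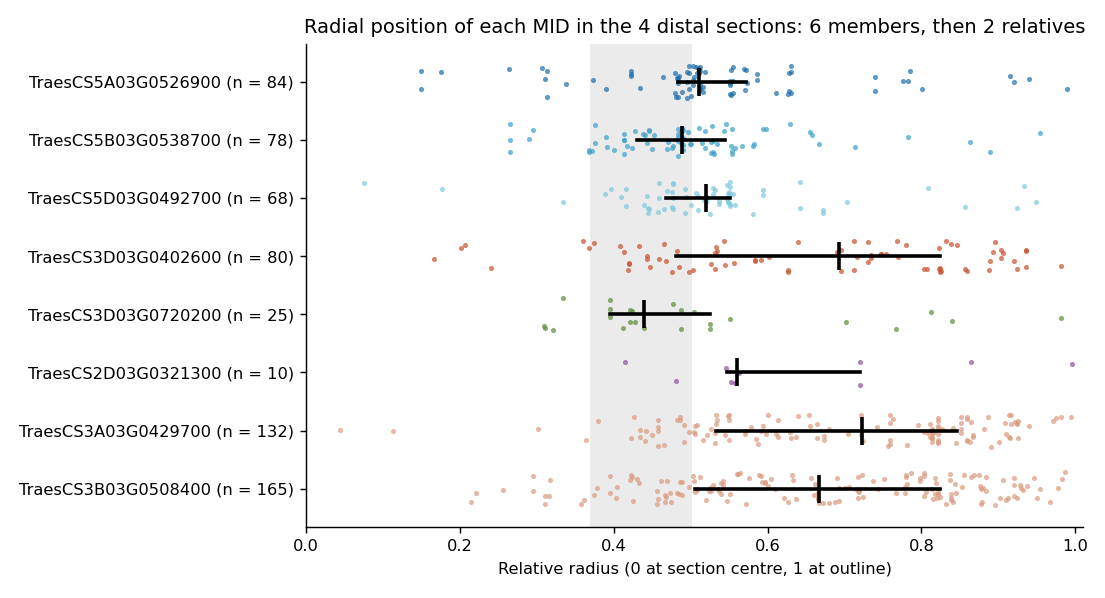
Relative radius of every MID in the 4 distal sections for the 6 members and, below them, the 2 relatives in the PER9 group with the most MIDs. Each dot is 1 MID, the black bar spans the quartiles and its tick is the median, and the grey band is the zone from 0.37 to 0.50. TraesCS3D03G0402600 and both relatives spread to the outer part of the root, with medians of 0.692, 0.722 and 0.667, against 0.489 to 0.520 for the group 5 genes.

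The remaining relatives were rarer. TraesCS6B03G0945500 had 22 MIDs with a mean radius of 0.426, closer to the centre than any member, and 8 of them lay in the narrower zone (log2 enrichment 1.62, limits 0.41 to 2.60). TraesCS3B03G0508500 had 15, of which 8 lay beyond radius 0.85. The other relatives had 4 MIDs or fewer within the distal outlines, and TraesCS2D03G0692900 and TraesCS2B03G0825500 had 0 on the whole chip. Pooled, the 11 relatives had a log2 enrichment in the narrower zone of 0.49 (limits 0.08 to 0.87). With boundaries 10% closer to the centre this turned to -0.15 (limits -0.74 to 0.38), and without section 4 it was 0.20 (limits -0.51 to 0.83).

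TraesCS3D03G0720200 was captured nearly in 1 section alone. It had 1, 1, 0 and 23 MIDs in distal sections 1 to 4, and the 23 had a mean radius of 0.473. Of its 25 MIDs, 12 lay in the narrower zone, with 3.03 expected (log2 enrichment 1.98, limits 1.03 to 2.79). Its copies TraesCS3B03G0898100 and TraesCS3A03G0779600, which are no members, followed it, with 37 of 40 and 9 of 10 MIDs in section 4. Their mean radii were 0.506 and 0.381. TraesCS2D03G0321300 was the rarest member, with 4, 0, 0 and 6 MIDs. Its 4 MIDs of section 1 all lay outside the drawn ring by more than 40 spots, whereas 4 of the 6 in section 4 lay within 40 spots of it.

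The members were unevenly captured among the sections. They had 51.5 MIDs per 1000000 nuclear MIDs in section 1 (limits 41.9 to 62.6), 21.9 in section 2 (16.2 to 28.9), 25.1 in section 3 (18.2 to 33.9) and 109.9 in section 4 (93.1 to 129). Section 4 was 3.36 times the other 3 together (exact conditional limits 2.70 to 4.18). The ratio was 1.71 for TraesCS5A03G0526900 (limits 1.02 to 2.79) and 4.50 for TraesCS5B03G0538700 (limits 2.81 to 7.20). For TraesCS3D03G0720200 it was 49.1 (limits 12.1 to 430). Section 4 also stood apart in lists of other cell types. It had 5.98 times the xylem list of the other 3 sections and 2.63 times the pericycle list, but 0.244 times the epidermis list and 0.186 times the phloem list. The part of these differences in the result was not tested, and the labels do not give the distance of a section from the tip. Fewer cells of a type and less RNA per cell cannot be told apart.

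The distal root region did not stand above the root cap region in these genes. Within the outlines, the 6 members had 47.3 MIDs per 1000000 nuclear MIDs in the distal region (limits 42.4 to 52.6) and 47.2 in the root cap region (limits 39.7 to 55.7). The log2 ratio of distal over root cap was 0.00 (limits -0.28 to 0.30). It depended on single distal sections, since it was -0.53 without section 4 (limits -0.85 to -0.21), and it was 0.31 without section 2 (limits 0.02 to 0.61). No root cap section was left out, though section 4 of that chip gave 49 of its 141 member MIDs. Over all spots of the chips the log2 ratio was -0.34 (limits -0.44 to -0.23), from 2194 and 1010 MIDs. Across all genes with at least 20 MIDs over both chips, 20.6% were at least 2-fold higher in the distal region, and 1 of the 5 members tested was. This was TraesCS3D03G0720200, with 25 MIDs in the distal region and 2 in the root cap region (log2 2.36, limits 0.35 to 5.48), and 23 of the 25 came from section 4. TraesCS5B03G0538700 had 78 and 19 MIDs (0.75, limits 0.01 to 1.56), but 40 of the 78 came from section 4. Sections 1 to 3 of the distal region gave 6.43 MIDs per 1000000 nuclear MIDs for it, against 6.36 in the root cap region. The limits of the other 4 members included 0. The copies of TraesCS3D03G0720200 on 3A and 3B, with TraesCS2B03G0423100, which the study's tables pair with TraesCS2D03G0321300, had 57 distal MIDs and 6 root cap MIDs together (log2 1.96, limits 0.75 to 3.46). Of the 57, 53 came from section 4. Distal sections 1 to 3 had 4, which is 0.677 MIDs per 1000000 nuclear MIDs, against 2.01 in the root cap region. The higher distal level thus rests on section 4, and without it these counts are too few to give a direction.

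**Figure D5:**
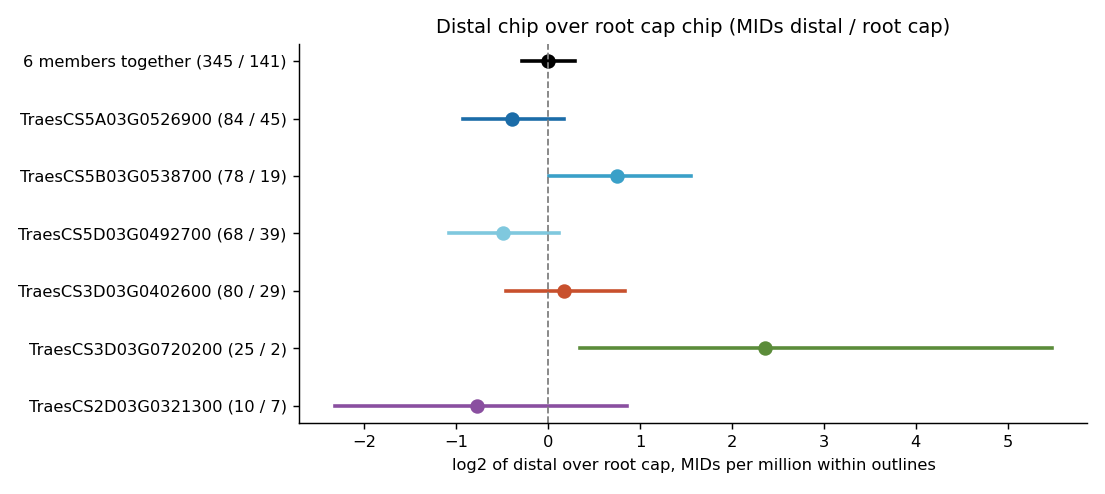
log2 ratio of MIDs per 1000000 nuclear MIDs within the outlines, distal over root cap chip, for the 6 members together and each alone. Points are ratios, bars exact conditional 95% limits that cover counting error only, and the numbers in brackets are distal and root cap MIDs. The pooled ratio is at 0.00, and only TraesCS3D03G0720200 and TraesCS5B03G0538700 have limits above 0, with 23 of 25 and 40 of 78 distal MIDs from section 4.

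Pooled over the 10 sections, the members also peaked in a ring on the root cap chip. Of their 141 MIDs there, 63 lay between radius 0.40 and 0.60, with 24.8 expected (log2 enrichment 1.35, limits 0.97 to 1.70), and 29 lay in the narrower zone, with 12.99 expected (1.16, limits 0.58 to 1.68). The study plotted this list on a section of the distal chip, but it looked at all segmented sections when it chose genes, and whether these sections entered the choice is not given. Many of these sections are folded or torn, which limits the meaning of a radius. The capture was uneven here as well. Section 4 of the root cap chip gave 49 of the 141 MIDs, 24 of them between 0.40 and 0.60, but 1 in the narrower zone. Sections 3 and 9 had 11 and 10 MIDs between 0.40 and 0.60, with 4.36 and 2.39 expected. Sections 2 and 7 had 5 and 6 there, with 3.28 and 3.23 expected and log2 limits that include 0. Sections 5, 6 and 8 had 3, 1 and 3 there, and sections 1 and 10 had 0. For their depth, sections 2 and 7 were the highest, at 186 and 169 MIDs per 1000000 nuclear MIDs, but they had the fewest nuclear MIDs. By area, section 4 was the highest, at 42.7 MIDs per 1000000 spots against 32.3 and 32.8 in sections 2 and 7. Section 1 was the lowest on both scales, with 1 MID. Of the 3 members with at least 20 MIDs there, 1 was enriched at least 2-fold in the narrower zone (TraesCS3D03G0402600), as were 7.97% of all genes with as many MIDs.

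Among all genes with at least 20 MIDs within the distal outlines, 6.77% were above expectation in the narrower zone in every section where they had a MID, and 2 of the 5 members with as many MIDs were, TraesCS5A03G0526900 and TraesCS5B03G0538700. The lower limit was above expectation for 8.73% of genes and for all 5 of these members. At least a 2-fold enrichment in that zone was found for 5.41% of genes and for 4 of the 5 members. Between 0.40 and 0.60 it was found for 1.84% of genes and again for 4 of the 5, all but TraesCS3D03G0402600. As the members were picked for this pattern on this chip, these counts only describe them.

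Set against the neighbouring lists, the members as a sum lay between cortex and stele. Their mean radius in the distal sections was 0.142 below that of the 14 cortex genes. It was 0.105 above that of the 4 xylem genes, and 0.141 above that of the 5 pericycle genes, which had 42 MIDs in all. The enrichment in the narrower zone was 7.33 times that of the cortex list (exact conditional limits 5.96 to 8.96), 0.860 times that of the xylem list (0.661 to 1.12) and 0.673 times that of the pericycle list (0.421 to 1.13). Relative to the phloem list, with 120 MIDs, it was 0.706 times (limits 0.508 to 0.992), so the members were below that list. The narrower zone therefore did not set the members apart from xylem and pericycle genes at this depth, and phloem genes were more enriched in it. Between 0.40 and 0.60 the ratio to the xylem list was 1.499 (limits 1.20 to 1.88), that to the phloem list 1.89 (limits 1.34 to 2.75), and that to the pericycle list 1.12 (limits 0.728 to 1.81). As this interval was set after the member profiles were seen, it favours the members, and these ratios only describe them.

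Genes named in the study's tables for the Casparian strip and its neighbourhood were mostly rare. Both MYB36-like genes, TraesCS6A03G0889900 and TraesCS6D03G0764800, had 0 MIDs within the distal outlines, and 11 and 2 on the whole chip. On the root cap chip they had 2 MIDs each within the outlines. The CASPARIAN STRIP INTEGRITY FACTOR 1-like gene TraesCS3D03G0398800 had 44 MIDs in the distal sections (13, 9, 14 and 8) and lay inside the ring, with a mean radius of 0.345 and a median distance of 103 spots towards the centre from the drawn line. The 6 genes of the uclacyanin UCC2 group had 12 MIDs together, with 0 in the narrower zone where 1.35 were expected, a difference not detectable at this depth. The PAL1 group genes, for phenylalanine ammonia-lyase at the entry to lignin synthesis, had 103 MIDs with no ring. Of these, 9 lay in the narrower zone with 12.2 expected, and both genes were lower in the distal region than in the root cap region (log2 -1.53, limits -2.07 to -0.99, for TraesCS6D03G0526000 and -0.98, limits -1.63 to -0.33, for TraesCS6B03G0758700).

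Of the 10 aquaporin genes listed for the endodermis, which encode water channels, 3 had at least 20 MIDs, and none had limits above 0 in the narrower zone, where 8.73% of all genes with as many MIDs did. Between 0.40 and 0.60 the 10 genes together had 76 MIDs, with 53.3 expected (log2 0.51, limits 0.17 to 0.84). Of their 246 MIDs, 218 lay in distal section 4. TraesCS7B03G0675100 gave 117 of these. It had 50 of its 125 MIDs between 0.40 and 0.60, with 27.2 expected (log2 0.88, limits 0.45 to 1.28). It was lower in the distal than in the root cap region, with 125 and 247 MIDs (log2 -2.27, limits -2.59 to -1.95). TraesCS3D03G1192600 went the other way, with 31 and 0 MIDs, and 30 of the 31 came from section 4. With a floor of 3 MIDs in place of the 0, it was 4.23-fold higher in the distal region. The exact conditional lower limit, with the 0 kept, was 3.24. Without section 4 only 1 distal MID is left, so the difference rests on that section.

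The 7 peroxidase genes of chromosomes 2A, 2B and 2D that the study lists with IDs close to that of TraesCS2D03G0321300 or of its copies had 90 MIDs with a mean radius of 0.863, and 3 lay in the narrower zone where 10.95 were expected (log2 -1.87, limits -4.15 to -0.32). The study gives TraesCS2D03G0321600, TraesCS2A03G0303700 and TraesCS2B03G0423400 of these as an epidermis marker. They had 25, 1 and 38 of the 90 MIDs, so an outer position was known for much of this list. TraesCS2D03G0321300 itself had a mean radius of 0.519 from 6 MIDs in section 4 and 0.825 from 4 MIDs in section 1, and the difference from its neighbours was not tested. Section 4 gave 86 of the 90 MIDs.

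Nearly all MIDs of the members were exonic. On the distal chip 2186 of 2194 were (99.6%, limits 99.3% to 99.8%), against 77.1% of all nuclear MIDs, and on the root cap chip 1008 of 1010 were, against 61.1%. The median gene with at least 20 MIDs was at 97.2% on the distal chip and 99.8% on the root cap chip, and 28.7% of genes on the distal chip were at or above the members. In the band from 50 to 300 spots outside the distal outlines, the density of member MIDs was 0.381 times that within (exact conditional limits 0.312 to 0.463), against 0.714 for all nuclear genes. A low ratio was not particular to the members. The cortex list had 0.292 (limits 0.282 to 0.302), the xylem list 0.294, the pericycle list 0.105 and the PER9 group relatives 0.381. Among the members, the ratio was 0.557 for TraesCS5A03G0526900 (limits 0.387 to 0.795) and 0.254 for TraesCS3D03G0402600 (limits 0.152 to 0.408). On the root cap chip it was 0.726 for the members (limits 0.571 to 0.923) and 0.693 for all nuclear genes.

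The genes most like the members in radial profile were sought among 5346 genes with at least 200 MIDs, over 40 points (4 sections by 10 bins). These points share 1 library and the depth of each section. They also carry the level of a gene in each section, so the correlation does not rest on radius alone. The 5 with the highest Pearson correlation with the summed profile were TraesCS7B03G1102600LC (0.80), TraesCS1A03G0486000 (0.74), TraesCS1D03G0042100 (0.72), TraesCS4B03G0858700 (0.71) and TraesCS2B03G0913900 (0.71). TraesCS1D03G0042100 had the most MIDs of these, with 271, 360, 179 and 329 in sections 1 to 4, and 551 of its 1139 MIDs lay between 0.40 and 0.60 (log2 enrichment 1.22). It had 7013 MIDs on the whole distal chip and 8994 on the root cap chip. For TraesCS7B03G1102600LC, 134 of 253 MIDs lay in section 4. Its log2 enrichment between 0.40 and 0.60 was 0.87. That of TraesCS1A03G0486000 was 0.62, that of TraesCS4B03G0858700 1.06 and that of TraesCS2B03G0913900 0.95. The members had 1.56 there, above all 5 genes, but that interval was set after the member profiles were seen. Among the members, the correlation of each gene with the sum of the other 5 ranged from 0.51 for TraesCS2D03G0321300 and TraesCS5A03G0526900 to 0.81 for TraesCS5B03G0538700.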

How the data were processed

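The authors deposited raw counts of MIDs per gene and capture spot for 2 chips, made with the STOmics Analysis Workflow, with the exonic part as a second count. No source used here names the genome build behind these counts, and 0 of the 121 named gene IDs matched the RefSeq table used here, so no sequence or coordinate is shown. Organelle rows were left out of references (0.00494% of MIDs on the distal chip and 0.00193% on the root cap chip).

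Outlines of the sections, and the ring, were drawn by hand with no gene mapped. Sections were numbered by place, and the study's cell segmentation was not used. Observed MIDs in a zone were set against the share of all nuclear MIDs of the same section there, with exact Poisson limits. Ratios have exact conditional limits, shares Clopper-Pearson limits. Not all MIDs are independent, since 345 member MIDs came from 277 gene and spot pairs. The named genes are the members, their relatives and copies, pathway genes of the study's tables and the 5 most similar profiles. Members and lists were chosen with earlier results of these data known. Scripts used Python 3.11.15, numpy 2.4.6, pandas 2.3.3 and scipy 1.17.1, and were tested on simulated data. Alternatives were other outlines, boundaries, radius, denominators, exonic MIDs, and leaving out sections.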

Additional observations from a re-analysis of the deposited data

How the results depend on the processing

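No paired analysis was possible because no result comes from a test and each region has 1 library. Of 71 alternative values, 57 stayed within the limits or spread of the value reported or, for counts without limits, within a set fold of it. The fold rule covers 9 of these 57, from the 13 alternatives for the number of members above expectation in every section. The log2 enrichment of the members in the zone from 0.37 to 0.50, at 1.54, kept its sign in all alternatives, and its limits stayed above 0 in all that have limits. It was 0.91 with outlines 5% smaller, 1.81 with outlines 5% larger, 0.996 with boundaries 10% closer to the centre and 1.93 with the density outside the outlines subtracted, and between 1.31 and 1.64 without 1 section. The radial shift of -0.114 lay between -0.142 and -0.0921. For the 11 PER9 group relatives, the enrichment turned to -0.15 with boundaries closer to the centre and lay between 0.20 and 0.61 without 1 section. The number of members above expectation in every section was 2. It was 0 with outlines 5% smaller and with boundaries closer to the centre, 5 when only sections with at least 5 MIDs counted, and 2 to 4 without 1 section. The log2 ratio of distal over root cap was -0.34 over all spots and between -0.53 and 0.31 without 1 distal section, and the 5A share was 33.5% to 43.8%. With 5 radial bins and at least 500 MIDs, 1 of the 5 genes with the most similar profile stayed among the 5, and only that 1 had enough MIDs. The cause of these shifts was not tested. The distal over root cap ratio was -0.18 with exonic MIDs only, -0.19 without the 100 genes with the most MIDs and -0.05 with each gene counted once per spot, all with limits that include 0. With each gene counted once per spot, the enrichment was 1.504 for the members and 0.43 for the relatives, whose limits then include 0. This alternative, the distance from the drawn ring, the interval from 0.40 to 0.60 (1.56) and leaving out TraesCS3D03G0402600 (1.69) were chosen after seeing the data. The zone, the outer interval and the single-gene values rest on few MIDs, and a difference of a few MIDs in a section is not detectable at this depth.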
